A study of Mus musculus with 2 samples.

Results

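The Mir17-92 cluster is a run of 6 microRNA genes, Mir17, Mir18, Mir19a, Mir20a, Mir19b-1 and Mir92-1, that lie side by side in the noncoding host gene Mir17hg. These 6 were taken by symbol from the 1973 microRNA genes counted in livers of B6NCrl mouse embryos at day 11.5, and their read levels were compared within each library. The livers came from healthy embryos, males and females pooled, with no treatment named in the labels. There were 2 libraries of RNA below 30 nucleotides, labelled as biological replicates of 1 group, so no conditions could be compared and no test was made. Replicate 1 was a pool of 109 embryos, while the size of the other pool was not given, and the labels give both the same donor entry. Replicate 1 held 3344673 reads assigned to a microRNA gene on its own strand and replicate 2 held 1584499.

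Clustered microRNAs are cut from a shared primary transcript. Drosha and its partner DGCR8 release each hairpin in the nucleus, Dicer removes the loop in the cytoplasm, and an arm of the hairpin is loaded into an Argonaute protein, where bases 2 to 8 (the seed) guide it to target messages. The Mir17-92 transcript is driven by Myc and E2F factors in dividing cells, and its products repress brakes on growth and survival such as Cdkn1a and Bcl2l11. In mice, loss of the cluster is lethal at birth and stalls early B cells of the fetal liver. Mammals carry a pair of paralogous clusters with related genes, Mir106a-363 and Mir106b-25.

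The cluster occupies 836 bases of chromosome 14, plus strand, from 115043671 to 115044506 of mm10. All 6 hairpins lie in exon 2 of the annotated Mir17hg transcript (ENSMUSG00000089726.2, 115042879 to 115046727), a long noncoding RNA of 2 exons in GENCODE M21. The first hairpin begins 792 bases after the transcript's start. From the Mir17 end, the gaps between neighbouring hairpins were 96, 53, 75, 41 and 35 bases. The hairpins are shown here because their reads are what was counted, and because 2 of them share an arm with a gene elsewhere. RefSeq sequences (GRCm38.p6, all plus strand, matched for 6 of 6 genes by symbol and position) are given 5′ to 3′, with the listed mature arms in capitals.
Mir17 (chr14:115043671-115043754): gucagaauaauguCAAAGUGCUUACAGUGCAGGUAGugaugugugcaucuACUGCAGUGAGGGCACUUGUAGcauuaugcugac
Mir18 (chr14:115043851-115043946): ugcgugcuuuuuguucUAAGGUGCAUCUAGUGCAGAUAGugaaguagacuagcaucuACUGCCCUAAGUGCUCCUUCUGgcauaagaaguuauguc
Mir19a (chr14:115044000-115044081): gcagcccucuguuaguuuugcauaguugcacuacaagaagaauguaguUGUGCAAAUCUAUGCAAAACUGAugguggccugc
Mir20a (chr14:115044157-115044263): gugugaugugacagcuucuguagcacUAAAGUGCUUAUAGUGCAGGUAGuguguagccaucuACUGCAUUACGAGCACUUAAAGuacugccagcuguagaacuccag
Mir19b-1 (chr14:115044305-115044391): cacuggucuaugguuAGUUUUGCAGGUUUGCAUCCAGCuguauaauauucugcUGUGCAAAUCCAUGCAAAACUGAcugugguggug
Mir92-1 (chr14:115044427-115044506): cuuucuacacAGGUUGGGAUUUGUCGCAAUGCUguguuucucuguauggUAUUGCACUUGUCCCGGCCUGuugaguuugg

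The 6 genes carry 4 different seeds. Background knowledge places the main product on the 5p arm of Mir17, Mir18 and Mir20a and on the 3p arm of the miR-19 and miR-92 genes. The counts were made per gene and do not separate the arms. These arms are shown with bases 2 to 8 in capitals so that the families can be read off.
miR-17-5p: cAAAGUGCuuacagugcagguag
miR-20a-5p: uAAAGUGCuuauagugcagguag
miR-18a-5p: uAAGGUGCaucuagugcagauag
miR-19a-3p: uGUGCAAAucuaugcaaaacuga
miR-19b-3p: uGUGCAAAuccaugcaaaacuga
miR-92a-3p: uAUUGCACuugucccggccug
With positions counted from 1 at the 5′ end, miR-20a-5p differs from miR-17-5p by C1U and C12U, both outside the seed. The seed of miR-18a-5p differs from that of miR-17-5p by A4G alone, among 6 differences over the whole arm. The miR-19 arms differ only by U11C.

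The genes of this transcript had very unequal read levels, with a gap between 4 abundant genes and the miR-19 genes. How far reads of different sequences reflect amounts of RNA was not tested. Levels are given as counts per 1000000 (CPM), each gene's reads on its own strand over all assigned reads of that library. Assigned reads were 26.2% and 29.0% of all reads in replicates 1 and 2. Reads that align to several places, 22.0% and 22.6%, were assigned to no gene, so genes with similar copies may be counted too low. Levels, ranks and shares given here hold among assigned reads only. Together the 6 genes made up 12.7% of assigned reads in replicate 1 (95% exact Clopper-Pearson interval 12.65 to 12.72) and 8.78% in replicate 2 (8.74 to 8.83), a mean of 10.7 ± 2.76% (SD, n = 2). Such intervals cover counting error only, since the reads carry no molecular identifiers that the sources describe. In whole livers, fewer cells of a type and less RNA per cell cannot be told apart.

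Mir17 (ENSMUSG00000065508.1), the first gene of the cluster, whose product represses the cell cycle inhibitor Cdkn1a, had 77281 CPM in replicate 1, with 51029 CPM in replicate 2. It was, by assigned reads, the most abundant of all counted genes in replicate 1 and ranked 3 in replicate 2. Mir20a (ENSMUSG00000065442.1), with the same seed, had 29234 and 18331 CPM in replicates 1 and 2. Its rank among all genes was 7 in replicate 1 and 17 in replicate 2. Mir17 and Mir20a together thus supplied most of the cluster's reads: Mir17 held 59.5 ± 2.00% of them and Mir20a 22.0 ± 1.54% (SD, n = 2).

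Mir18 (ENSMUSG00000065403.1), whose seed is close to that of Mir17, had 11673 CPM in replicate 1, with 10131 CPM in replicate 2. Mir92-1 (ENSMUSG00000076062.1), the last hairpin of the transcript, whose family is known to act on integrin Itga5 in endothelium, had 8411 and 8141 CPM in replicates 1 and 2. Mir18 stood above Mir92-1 in both libraries, by 1.39-fold in replicate 1 and 1.24-fold in replicate 2, and their values did not overlap. Mir18 held 10.4 ± 1.65% and Mir92-1 7.95 ± 1.87% of the cluster's reads (SD, n = 2).

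The miR-19 genes were counted at far lower levels. Mir19a (ENSMUSG00000065416.1) had 160 CPM from 536 reads in replicate 1 and 119 CPM from 188 reads in replicate 2, ranks 200 and 207 among all genes. Mir19b-1 (ENSMUSG00000076256.1) had 59.5 CPM from 199 reads in replicate 1 and 58.1 CPM from 92 reads in replicate 2. Mir19a held 0.131 ± 0.00619% and Mir19b-1 0.0565 ± 0.0136% of the cluster's reads (SD, n = 2). Both libraries put the miR-19 genes at the bottom, on either side of Mir20a in the transcript.

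By mean level the order was Mir17, Mir20a, Mir18, Mir92-1, Mir19a and Mir19b-1, and it was the same in both libraries. No 2 neighbours in this order overlapped between libraries. Mir17 exceeded Mir20a by 2.64-fold in replicate 1 and 2.78-fold in replicate 2. The widest step between neighbours was from Mir92-1 to Mir19a, with Mir92-1 higher by 52.5-fold in replicate 1 and 68.6-fold in replicate 2. From Mir17 down to Mir19b-1 the level differed 1299-fold in replicate 1 and 879-fold in replicate 2. Mir19b-1 shares an arm with another gene and may be counted too low, so this range may be too wide. Divided by hairpin length, which ran from 80 bases in Mir92-1 to 107 in Mir20a, the mean levels per 100 bases of hairpin kept the same order: 76375 CPM for Mir17, 22227 for Mir20a, 11356 for Mir18, 10345 for Mir92-1, 170 for Mir19a and 67.6 for Mir19b-1.

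**Figure D1:**
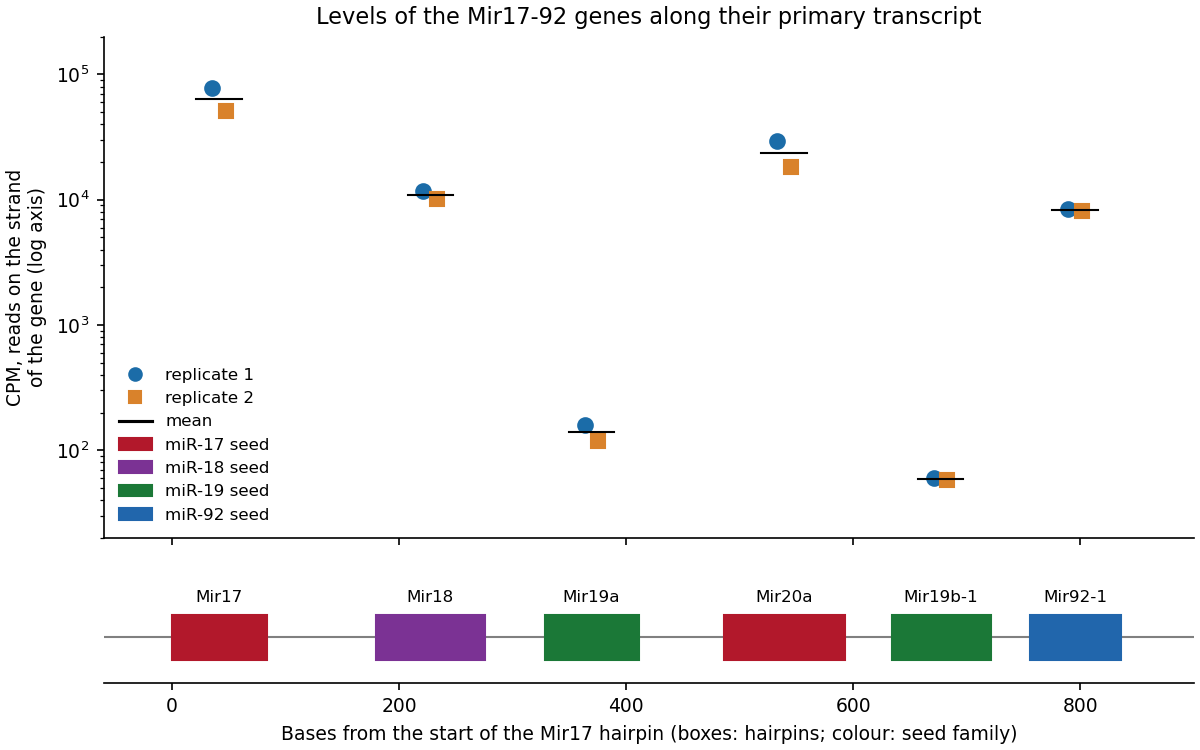
Level of each Mir17-92 gene (CPM, log axis) against its position in bases from the start of the Mir17 hairpin, with circles for replicate 1, squares for replicate 2, a line at the mean, and boxes for the hairpins coloured by seed family. The miR-19 genes lie at 160 CPM or below in both libraries, while the hairpins on either side of each lie at 8141 CPM or above.

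Position along the transcript did not order the levels: the first and the fourth hairpins were highest, the third and the fifth lowest. The predicted hairpin structures were also described, by minimum free energy per 100 bases from RNAfold. It was −43.7 kcal/mol for Mir17, −36.1 for Mir20a, −30.4 for Mir18, −42.5 for Mir92-1, −47.2 for Mir19a and −43.4 for Mir19b-1. Mir19a had the lowest predicted energy of the cluster by this measure and Mir18 the highest. The part of predicted structure in the levels was not tested. The GC content of the hairpins lay between 43.7% in Mir19b-1 and 47.5% in Mir92-1.

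Some mature arms of the cluster occur at more than 1 gene. The whole of miR-19b-3p is also in the Mir19b-2 hairpin on chromosome X, and the whole of miR-92a-3p is in Mir92-2 beside it. The mature arms of the other 4 genes were in no other RefSeq hairpin. None of those arms was found in the 141767 GENCODE M21 transcripts outside its own gene and Mir17hg, on either strand, with 0 other genes for each. Matches in the rest of the genome were not searched for. The longest run of bases that Mir19b-1 shares with Mir19b-2 is 25, against 23 bases in the mature arm. For Mir92-1 and Mir92-2 the shared run is 22 bases, against 21 in the mature arm. Reads that align to several places form a class of their own in the files and belong to no gene. Of all reads, 22.0% in replicate 1 and 22.6% in replicate 2 fell there, or 6.61 and 8.87 times as many as were counted for the cluster. Which of those reads came from miR-19b or miR-92a is unknown. A read that aligns to both genes of a shared arm is in neither gene's count. The levels of Mir19b-1 and Mir92-1 are therefore uncertain and may be too low. The part of shared sequence in their levels was not tested. Mir92-1 was at 8276 ± 191 CPM with a shared arm, and Mir19a at 139 ± 29.4 CPM with an arm that was in no other hairpin (SD, n = 2). Counts per gene do not show which arm those reads came from. The part of arm sharing in this difference was not tested. No reads were counted on the strand opposite to the 6 genes, with 0 in each library, which allows up to 3 reads per gene and library.

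The paralogous clusters gave fewer reads in both libraries. Mir106b-25, on chromosome 5 in its own host, held 2.44% of assigned reads in replicate 1 and 2.00% in replicate 2. The Mir17-92 cluster exceeded it 5.21-fold in replicate 1 and 4.38-fold in replicate 2. Mir106a-363, on chromosome X, held 0.154% in replicate 1 and 0.127% in replicate 2, and the Mir17-92 cluster exceeded it 82.3-fold and 69.4-fold. All 6 genes of Mir17-92, 6 of 6 of Mir106a-363 and 3 of 3 of Mir106b-25 had at least 10 reads in both libraries.

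Gene by gene, each of the 5 Mir17-92 genes set against a counterpart on chromosome X stood above it in both libraries. Mir17 exceeded Mir106a 138-fold in replicate 1 and 130-fold in replicate 2, although miR-106a-5p differs from miR-17-5p by U10A alone. Mir20a exceeded Mir20b 76.3-fold in replicate 1 and 77.9-fold in replicate 2. For Mir18 over Mir18b the folds were 174 in replicate 1 and 297 in replicate 2, where Mir18b had 225 and 54 reads. For Mir92-1 over Mir92-2, which share miR-92a-3p, they were 47.0 and 35.4. The narrowest gap was that of Mir19b-1 over Mir19b-2, which share miR-19b-3p, at 3.49-fold in replicate 1 and 3.41-fold in replicate 2, from 57 and 27 reads of Mir19b-2. The levels of these X-linked genes with shared arms are uncertain in the same way as those of Mir19b-1 and Mir92-1.

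**Figure D2:**
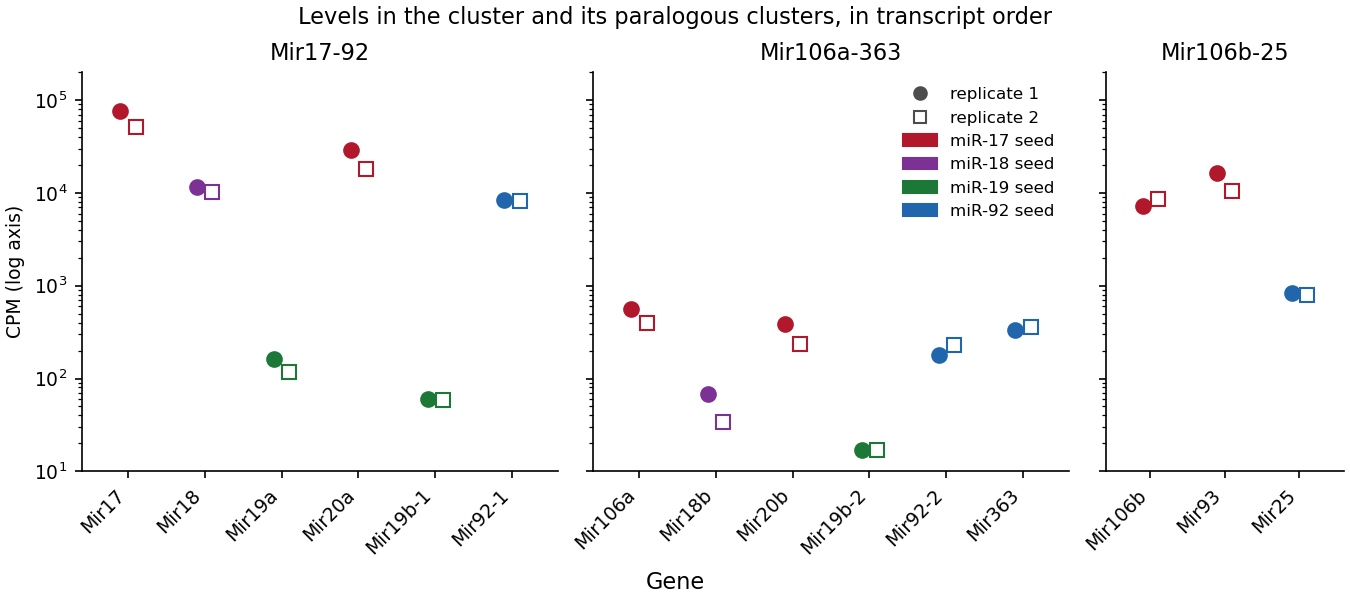
Level of every gene (CPM, log axis) in the Mir17-92, Mir106a-363 and Mir106b-25 clusters, in transcript order, with filled circles for replicate 1, open squares for replicate 2 and colour for the seed family. The highest gene by mean of each cluster has the miR-17 seed (Mir17, Mir106a and Mir93), and the miR-19 gene Mir19b-2 is lowest on chromosome X at 17.0 CPM.

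The order within the paralogous clusters was partly like that of Mir17-92. In Mir106a-363 the gene with the miR-17 seed at the first position, Mir106a, was highest by reads, with 562 CPM in replicate 1, with 393 CPM in replicate 2, and Mir19b-2 was lowest with 17.0 CPM in both. Mir18b, at 67.3 CPM in replicate 1, with 34.1 CPM in replicate 2, was low there, whereas Mir18 ranked above Mir92-1 and both miR-19 genes in Mir17-92. Mir363, a gene with the miR-92 seed, had 333 and 356 CPM in replicates 1 and 2. In Mir106b-25, Mir93 led with 16236 CPM in replicate 1, with 10571 CPM in replicate 2, followed by Mir106b with 7297 and 8668 CPM. Mir25, which shares the miR-92 seed, was lowest of that cluster with 829 CPM in replicate 1, with 793 CPM in replicate 2.

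Within each seed family the Mir17-92 genes held most of the counted reads. RefSeq lists the seed AAAGUGC for 7 genes, of which Mir17 and Mir20a held 79.5 ± 2.53% of the family's reads (SD, n = 2). The seed AAGGUGC is listed for 2 genes, and Mir18 held 99.5 ± 0.168% of their reads. Mir19a and Mir19b-1 held 92.8% of the reads of the 3 genes with the seed GUGCAAA in replicate 1 and 91.2% in replicate 2. Mir92-1 held 81.3 ± 1.68% of the reads of the 7 genes with the seed AUUGCAC (SD, n = 2). As totals over all genes with the seed, the families had 130992, 11740, 237 and 10194 CPM in replicate 1 and 89228, 10165, 194 and 10161 CPM in replicate 2, in the order named. Reads of miR-19b-3p or miR-92a-3p that align to more than 1 gene are in none of these counts. The totals of the miR-19 and miR-92 families may therefore be too low, and the shares within them are uncertain.

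The libraries differed in how much of the cluster they held. Summed over the 6 genes, replicate 1 exceeded replicate 2 by a log2 ratio of 0.53, or 1.44-fold, from total assigned reads. The log2 ratio of replicate 1 over replicate 2, with 0.5 added to each count, was 0.67 for Mir20a, 0.60 for Mir17, 0.43 for Mir19a, 0.20 for Mir18, 0.05 for Mir92-1 and 0.03 for Mir19b-1. The counting interval for Mir19b-1 ran from −0.33 to 0.41. No member, 0 of 6, lay at least 2-fold apart, where 15.9% of the 454 genes with at least 10 summed reads did. Among genes with at least 100 summed reads, as every member has, the share was 6.32%. Mir17 and Mir20a, 2 of 6, were at least 1.5-fold higher in replicate 1, against 22.7% of genes tested. All 6 were higher in replicate 1 by some amount, against 55.3% of genes tested, but with edgeR TMM or DESeq2 scaling Mir92-1 and Mir19b-1 turned to log2 ratios between −0.02 and −0.03. Then 4 of 6 were higher, against 48.9% of genes tested with TMM and 48.7% with DESeq2. The members' median log2 ratio was 0.32, and that of all 454 genes was 0.05. There was 1 library on each side, so these are descriptions of the libraries.

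**Figure D3:**
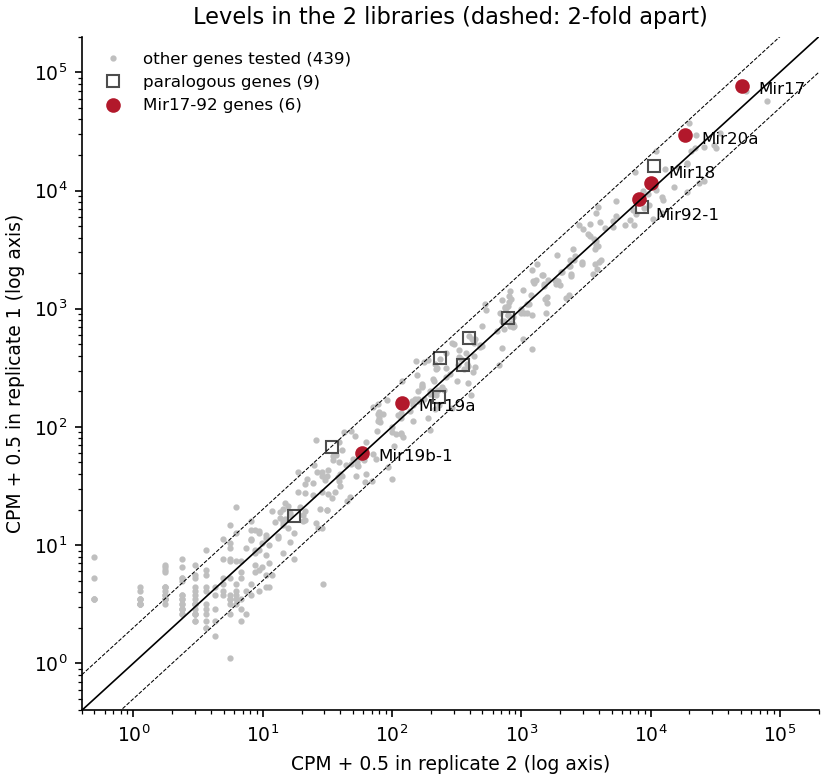
Level in replicate 1 against level in replicate 2 (CPM + 0.5, log axes) for the 454 genes with at least 10 summed reads, with filled circles for the Mir17-92 genes, open squares for the 9 paralogous genes, a solid line of equality and dashed lines at 2-fold. The 6 Mir17-92 genes lie between the dashed lines, Mir17 and Mir20a above equality and Mir92-1 and Mir19b-1 close to it.

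The make-up of the cluster therefore differed between libraries. Mir17 and Mir20a held 60.9% and 23.1% of its reads in replicate 1 and 58.1% and 20.9% in replicate 2. Mir18 held 9.20% in replicate 1 and 11.5% in replicate 2, and Mir92-1 held 6.63% and 9.27%. The exact counting intervals of these shares did not overlap between libraries for any of the 4 genes. They did overlap for Mir19a (0.116 to 0.138% and 0.117 to 0.156% in replicates 1 and 2). The same held for Mir19b-1 (0.0406 to 0.0539% and 0.0533 to 0.0811%). Such intervals cover counting error only and narrow as reads increase, and how many of all genes separate in this way was not counted. Mir17 over Mir92-1 was 9.19-fold in replicate 1 and 6.27-fold in replicate 2.

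Across the 3 clusters the ratios can be set out by seed. Of the 6 genes with the miR-17 seed, 5 were higher in replicate 1, from 0.51 for Mir106a to 0.70 for Mir20b, with 0.62 for Mir93, while Mir106b had −0.25. Of all genes tested, 55.3% were higher in replicate 1 by this scaling and 48.9% with TMM. The 3 miR-19 genes lay between −0.01 for Mir19b-2 and 0.43 for Mir19a, 2 of them higher in replicate 1, of which Mir19b-1 turned with TMM or DESeq2. The 4 genes with the miR-92 seed lay between −0.36 for Mir92-2 and 0.06 for Mir25. Mir18b had 0.97 with a counting interval from 0.55 to 1.44, against 0.20 for Mir18, where the interval ran from 0.18 to 0.23. Mir93 and Mir106b come from the same host transcript and carry the same seed, yet their ratios between the libraries had opposite signs.

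**Figure D4:**
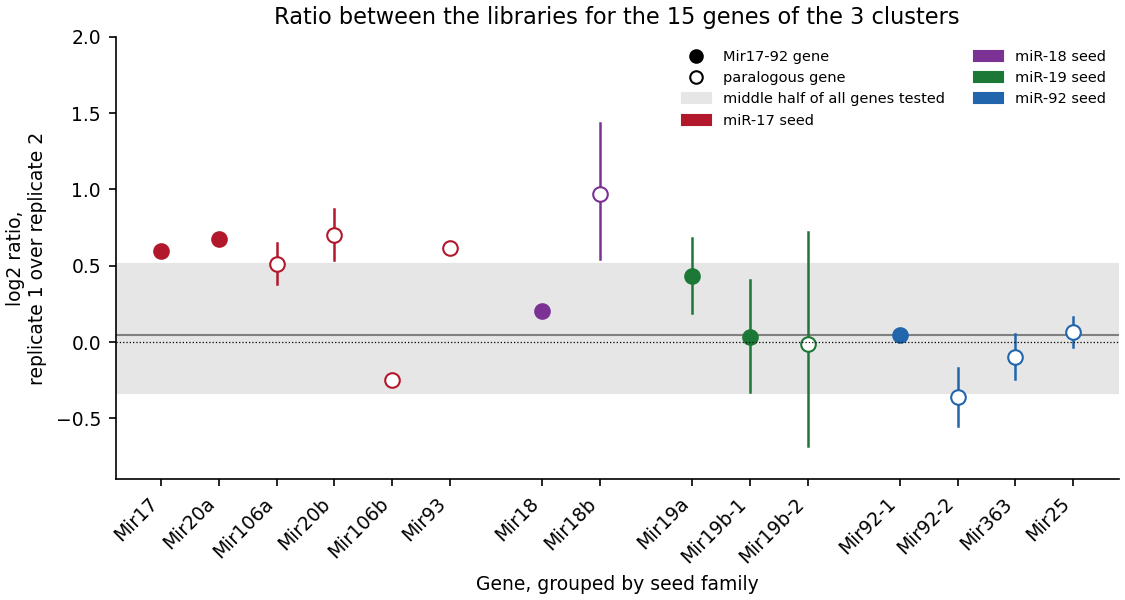
log2 ratio of replicate 1 over replicate 2 for the 15 genes of the 3 clusters, grouped by seed family, with filled circles for Mir17-92 genes, open circles for paralogous genes, vertical lines for the 95% counting interval, and a grey band from −0.33 to 0.51 that holds the interquartile range of all genes tested. Mir17 and Mir20a lie above the band and the other 4 Mir17-92 genes within it.

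With 2 libraries, likeness of pattern reduces to this ratio. Among 104 genes outside the 3 clusters with a mean of at least 1000 CPM, those nearest to the cluster's summed log2 ratio of 0.53 were Mir34c at 0.51, Mir148a at 0.49 and Mir494 at 0.57, and 7 of the 104 lay within 0.1 of it. Mir148a had 1725 CPM in replicate 1, with 1226 CPM in replicate 2.

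MicroRNAs known from the cell types of the liver and its neighbours were summed in the same libraries. The hepatocyte list, with 3 of 5 genes detected, summed to 33047 CPM in replicate 1, with 36867 CPM in replicate 2. Its genes did not all go the same way: Mir122 had 30679 and 34487 CPM and Mir194-2 1423 and 814 CPM in replicates 1 and 2. The erythroid pair Mir451a and Mir144 summed to 7954 and 11007 CPM. Mir126a, the endothelial gene, had 57443 and 80051 CPM, and the smooth muscle pair Mir143 and Mir145a summed to 11947 and 24074 CPM, in replicates 1 and 2. Within that pair Mir143 had 11472 and 23595 CPM, while Mir145a had 475 and 478 CPM. The leukocyte list, with 3 of 4 genes counted and all 3 detected, summed to 5341 and 5306 CPM. Most of that sum was Mir223, at 4934 and 5087 CPM in replicates 1 and 2. The other genes of that list were higher in replicate 1: Mir155 had 366 and 191 CPM and Mir150 had 41.0 and 28.4 CPM. The neural list, with 5 of 6 genes counted, summed to at most 3.29 CPM and the striated muscle list, with 4 of 5 counted, to at most 145 CPM. All of the striated muscle sum was Mir206, at 112 and 145 CPM in replicates 1 and 2. Muscle genes left off that list had reads too. Mir208a had 272 and 157 CPM, Mir208b 331 and 324 CPM, and Mir499 166 and 160 CPM in replicates 1 and 2. Mir124a-1, Mir124a-3, Mir9-2, Mir1a-1, Mir133a-1 and Mir133a-2 had 0 reads in both libraries. Reads that align to several places are left out of these counts too. A low or 0 count of a gene with similar copies therefore does not show that its microRNA was absent. The part of these cell types in the ratios of the Mir17-92 genes was not tested.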

How the data were processed

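Small RNA of embryonic mouse liver was sequenced in 2 libraries. The authors deposited raw counts of reads per microRNA gene, aligned to mm10 and counted over GENCODE M4, per the deposited descriptions; no aligner, counter or trimming step is named there. The files have 3 count columns (either strand, strand of the gene, opposite strand) and 4 summary classes that name no gene, 73.8% and 71.0% of reads in replicates 1 and 2, which were left out of library sizes.

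Counts on the strand of the gene were divided by their total and scaled to 1000000 (CPM). Symbols and positions came from GENCODE M21 by identifier, with 1894 of 1973 genes matched. Means carry the SD over 2 libraries, shares an exact interval of 95%, and a 0 allows 3 counts (0.897 and 1.89 CPM in replicates 1 and 2). Log2 ratios between libraries had 0.5 added to each count, over all genes with at least 10 summed counts; that calculation was checked on simulated counts. Scalings came from edgeR 4.0.16 and DESeq2 1.42.0 in R 4.3.3, folding from RNAfold 2.7.2, and the rest from Python 3.11.15 with scipy 1.17.1. The genes named are the members, their paralogs, 3 genes nearest in ratio and genes known from cell types. Members and lists were chosen with earlier results of these data known.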

Additional observations from a re-analysis of the deposited data

How the results depend on the processing

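The files hold 2 libraries of 1 group, so spread rests on n = 2 and reads that align to several places cannot be traced to a gene from these counts. No paired analysis was possible because both libraries belong to the same group. The order of the 6 genes was the same per 100 bases of hairpin, an alternative chosen after seeing the data, where Mir17 over Mir20a became 3.46-fold by construction. With all reads in the denominator the cluster's share became 2.94%, also by construction. Its log2 ratio between libraries was 0.47 with edgeR TMM, 0.47 with DESeq2 size factors and 0.54 from reads on either strand. At 1.5-fold, 2 members and 39.0% of all genes tested were apart. At 2-fold, 6.32% of genes with at least 100 summed counts were apart, and 75.1% with no filter, since genes at 0 in both libraries then differ by the library sizes alone. Leaving out a library in turn returns the value of the other by construction. The cluster share was then 8.78 to 12.7%, and Mir17 over Mir20a was 2.64 to 2.78. For the cluster over Mir106b-25 it was 4.38 to 5.21, and over Mir106a-363 69.4 to 82.3. Counting either strand left all 6 members' shares of the cluster unchanged by construction, since these genes had no reads on the opposite strand.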
